A study of Mus musculus with 7 samples.

Results

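Cluster 4 of the host library is the group of host epidermal cells that held the transcripts of a migratory Langerhans cell. Its members were taken as every host cell that the authors had assigned to cluster 4, which gave 90 of 781 host cells (11.5%) among 18106 cells in the series. Host clusters 1, 2 and 3, with 276, 170 and 161 cells, were the cells it was compared with. The clusters had been made from the same expression values, and there was 1 host library. Differences between clusters are therefore a description without a test, and their intervals cover counting error only.

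The series holds 7 single-cell libraries of mouse epidermis taken 3 weeks after bone marrow transplantation (BMT), 1 of host myeloid cells, 4 of donor myeloid cells and 2 of keratinocytes. Hosts were male C57BL/6 mice carrying CD45.2 that had been lethally irradiated, and the marrow came from female C57BL/6 mice carrying CD45.1. Host cells were sorted as CD11b+MHCII+ cells of host origin and carry the label BMT. The labels and the design text differ on whether the BMT libraries had also received T cells, namely CD4 cells with Matahari CD8 cells, which recognise a male antigen. The paper describes its host Langerhans cells as isolated alongside the donor cells from skin with graft-versus-host disease. In its model that disease follows from the added T cells. How many mice were pooled for the host library was not given in the sources used here.

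Langerhans cells are the antigen-presenting cells of the epidermis. They are held among keratinocytes by adhesion molecules such as E-cadherin and EpCAM, and carry langerin (Cd207). When they mature they loosen this adhesion, switch on the chemokine receptor CCR7, and travel through dermal lymphatics to the draining lymph node. Maturation is accompanied by costimulatory ligands, by chemokines that attract T cells, and by the actin-bundling protein fascin.

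The unit used for levels is unique molecular identifiers (UMIs) of a gene per 10000 UMIs of the cell or of the summed cells (CP10K). Summed depth was 597525 UMIs in cluster 4, against 1134742, 788721 and 790084 UMIs in clusters 1, 2 and 3. No barcode of cluster 4 was shared with another library, so no cell was counted for more than 1 library. The median cell of cluster 4 held 5007.5 UMIs and 2095 genes (range 326 to 40438 UMIs), against medians of 3919.5, 1763.5 and 4648 UMIs in clusters 1, 2 and 3. In cluster 4, 4 cells held 27143 to 40438 UMIs each and 22.7% of the UMIs together, and the next deepest cell held 15161. Summed levels weight these 4 cells by their depth. Values that moved by over 1.5 times without them are therefore also given for the 86 other cells, an alternative added after the data were seen. The 4 Y-linked genes examined (Ddx3y, Eif2s3y, Kdm5d and Uty) had 239 UMIs in cluster 4 and a UMI in 58 of its 90 cells. The donor cells annotated as migrating in BMT replicates 1 and 2 had 0 and 3 UMIs of them.

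RNA quality differed between the host clusters. The median mitochondrial share was 12.9% in cluster 4, between 6.09% in cluster 2 and 15.6% and 17.0% in clusters 1 and 3. Actb, the abundant cytoplasmic beta-actin message, was 116 CP10K in cluster 4 and 113 CP10K in cluster 2, but 5.24 and 14.4 CP10K in clusters 1 and 3. The 4 deepest cells held 59.4% of the Actb UMIs of cluster 4, and without them it was 61.0 CP10K. The median cell held 34.3 CP10K of Actb in cluster 4, against 69.5 in cluster 2 and 4.15 and 11.1 in clusters 1 and 3. The median share of ribosomal protein UMIs was 1.55% in cluster 4 against 10.4% in cluster 2. The part of these differences in the gene results was not tested. The counts of different genes are therefore given against clusters 1, 2 and 3 singly as well as pooled. Many single-gene ratios below are given against the 3 pooled clusters only. Within cluster 4 the mitochondrial share ran from 0.09% to 29.7%, and 33 of the 90 cells held under 500 genes or over 20% mitochondrial UMIs.

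**Figure D1:**
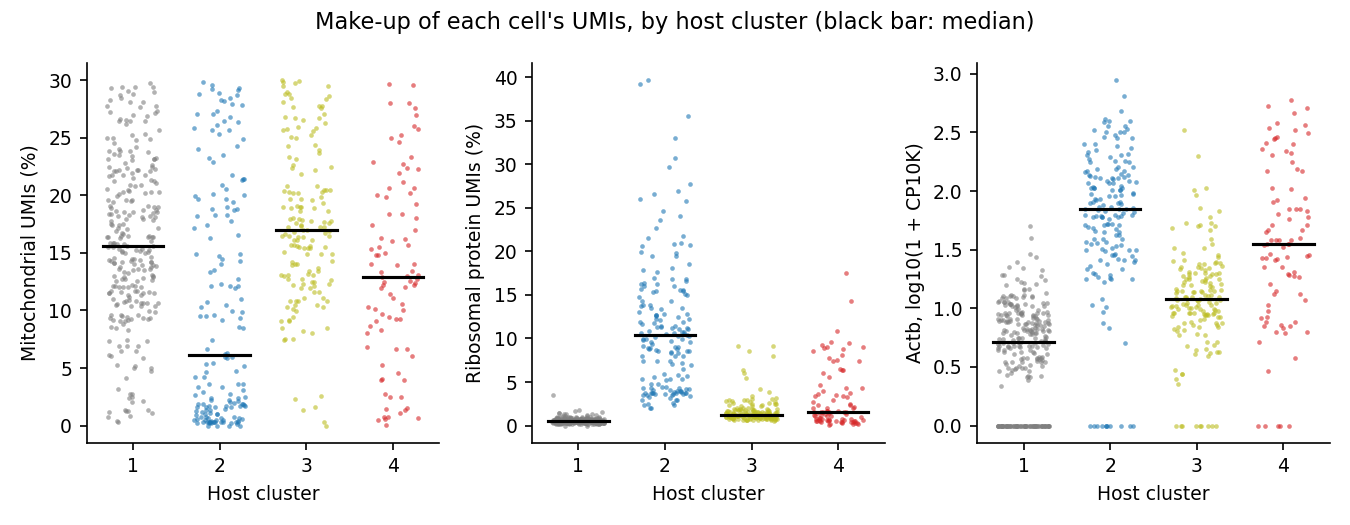
Mitochondrial UMIs in percent, ribosomal protein UMIs in percent, and Actb as log10 of 1 plus CP10K, each point being 1 cell of host clusters 1 to 4 and each black bar the median. Cluster 4 spans 0.09% to 29.7% mitochondrial UMIs, with a median ribosomal protein share of 1.55% against 10.4% in cluster 2.

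The 4 markers behind the cluster's name were checked first. Ccl22 encodes a chemokine that attracts CCR4-bearing T cells. It was at 19.1 CP10K in cluster 4 (1144 UMIs) and at 0.0441, 0.621 and 0.0886 CP10K in clusters 1, 2 and 3. The ratio to the 3 pooled was 85.2 (95% interval 65.8 to 112). The 4 deepest cells held 67.0% of its UMIs, and without them Ccl22 was at 8.16 CP10K and its ratio was 36.3 (27.6 to 48.4). Single cells of cluster 4 ran from 0 through a median of 4.88 to 84.8 CP10K, and 70.0% of them had a UMI (exact binomial interval 59.4 to 79.2%). Ccr7, the receptor that guides cells into lymphatics, was at 4.40 CP10K in cluster 4 with 263 UMIs, and had 7 UMIs over the cells of clusters 1 to 3. Its ratio was 171 (81.7 to 429), and 98.2 (46.2 to 250) at 2.53 CP10K without the 4 deepest cells. Ccr7 was detected in 44.4% of the cells of cluster 4 (34 to 55.3%), so its median was 0 CP10K while its highest cell stood at 25.4.

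Nr4a3, an orphan nuclear receptor linked to dendritic cell migration, was at 10.2 CP10K in cluster 4 and at 0.608, 1.32 and 0.456 CP10K in clusters 1, 2 and 3. The ratio was 13.3 (11.3 to 15.6), and its cells ran from 0 through 7.61 to 63.1 CP10K. It was the most widely detected of the 4 markers, in 76.7% of the cells (66.6 to 84.9%). Cd83, a surface glycoprotein of mature dendritic cells, was at 4.67 CP10K against 0.141, 1.26 and 0.165, a ratio of 9.90 (8.0 to 12.3). Its single cells ran from 0 through 2.53 to 66.5 CP10K. Cd83 was 33.1-fold and 28.4-fold above clusters 1 and 3, and 3.72-fold above cluster 2. The single-cell ranges of all 4 markers overlapped between clusters, because each had cells at 0 in cluster 4. In the keratin-rich host cluster 5, at a far greater median depth of 35812 UMIs, Ccl22 and Ccr7 had a UMI in 0 of 43 cells. By the limit of 3 counts this allows a share of cells with a UMI of up to 6.98%, and the exact binomial interval reaches 8.22%.

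**Figure D2:**
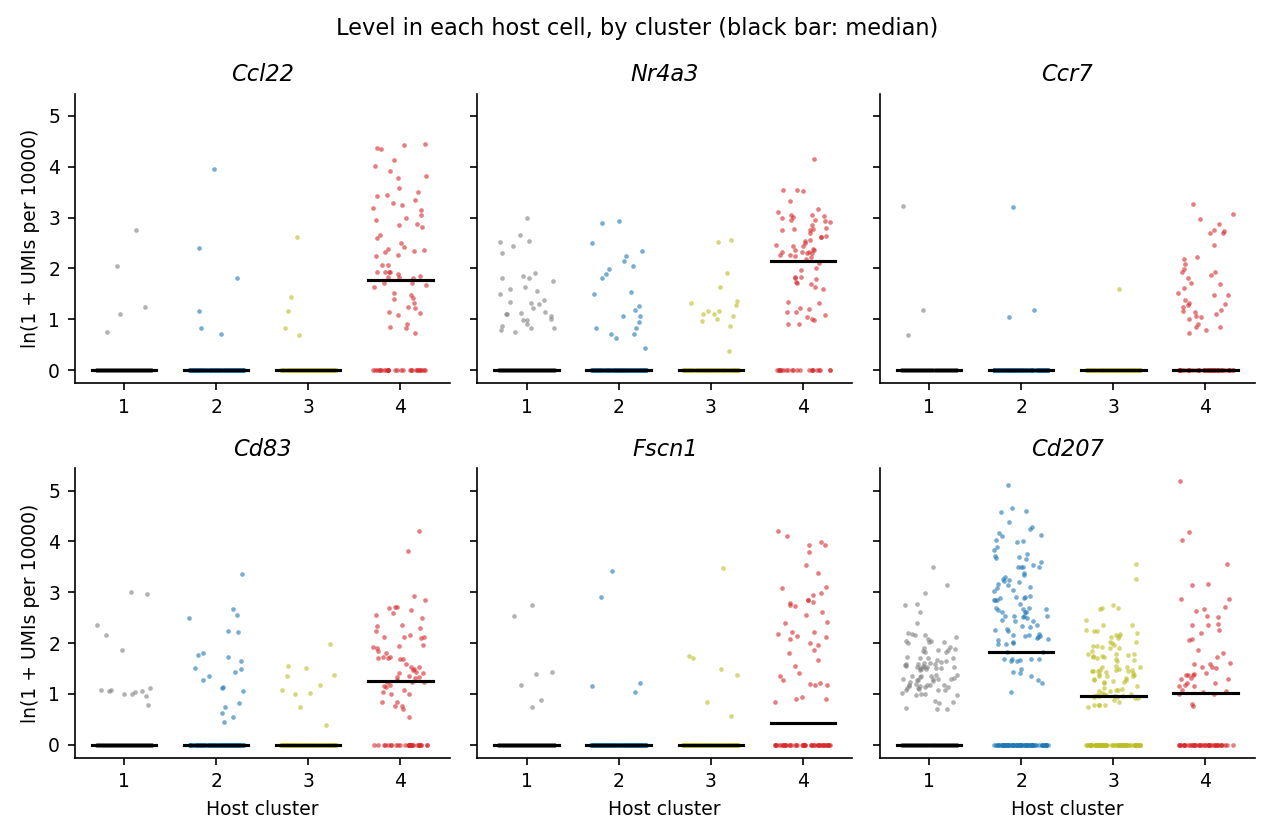
Level of Ccl22, Nr4a3, Ccr7, Cd83, Fscn1 and Cd207 in single cells of host clusters 1 to 4, as the natural log of 1 plus CP10K, each point being 1 cell and each black bar the median. The median of Ccl22 is 0 in clusters 1 to 3 and 4.88 CP10K in cluster 4, and every gene also has cells at 0 in cluster 4.

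Most members carried more than 1 of the 4 markers. All 4 were detected in 25 cells of cluster 4, 3 in 23 cells, 2 in 26, 1 in 12 and none in 4. No cell of clusters 1, 2 or 3 carried all 4, and 5 cells of cluster 2 carried 3. Detection followed depth: the 4 cells without a marker had a median of 682.5 UMIs, and the 25 with all 4 had 7582. When every cell was thinned to 1000 UMIs, which left out 11 of the 90 cells and 33, 77 and 7 cells of clusters 1, 2 and 3, Ccl22 was found in 43.0% of the cells of cluster 4 and Nr4a3 in 50.6%. Ccr7 was then found in 20.3% and Cd83 in 30.4%. At the same depth clusters 1, 2 and 3 gave 0.412, 1.08 and 1.95% for Ccl22, 4.12, 9.68 and 3.90% for Nr4a3, 0.823, 9.68 and 2.60% for Cd83, and 0 in each for Ccr7.

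Cells of cluster 4 were also compared among themselves by mitochondrial share. The 30 cells with under 10% mitochondrial UMIs held 33.4 CP10K of Ccl22, and the 60 others held 8.44, a ratio of 3.96. That difference rested on the 4 deepest cells, all of which had under 10% mitochondrial UMIs. Without them the low-mitochondrial cells held 7.38 CP10K of Ccl22, a ratio of 0.874 (0.681 to 1.11). Ccr7 was at 7.33 and 2.20 CP10K in the 2 groups (ratio 3.34, 2.54 to 4.42), and the ratio was 1.58 (1.06 to 2.34) without those cells. Fascin (Fscn1) was at 15.6 and 6.07 CP10K, and its ratio of 2.58 became 1.52 (1.19 to 1.92). Nr4a3 was at 10.1 and 10.3 CP10K (ratio 0.986, 0.837 to 1.16), and Etv3, Cacnb3 and Cd40 had ratios of 0.856, 1.04 and 0.971. Actb was at 199 CP10K in the low-mitochondrial cells and 53.5 in the rest, a ratio of 3.73 that became 1.54 (1.42 to 1.66) without the deepest cells. Across the 79 thinned cells, Spearman's rho of Ccl22 was 0.41 with Fscn1, 0.46 with Actb and 0.01 with Nr4a3. Those correlations share 1 library and sparse counts.

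The markers were also above cluster 2 when only cells with under 10% mitochondrial UMIs were taken on both sides, 30 cells against 98. This comparison was added after the data were seen. It did not match the 2 sides in RNA make-up or depth. Malat1 was at 464 CP10K in these cells of cluster 4 and 158 in those of cluster 2, a ratio of 2.95 (2.86 to 3.03). Over all their cells, 77 of 170 in cluster 2 and 11 of 90 in cluster 4 held under 1000 UMIs. Ccl22 was then 44.2-fold higher (31.8 to 63.2), Nr4a3 14.6-fold, Fscn1 128-fold and Cd83 7.19-fold. Without the 4 deepest cells Ccl22 was 9.77-fold higher (6.59 to 14.7), Nr4a3 13.3-fold, Fscn1 75.1-fold and Cd83 4.16-fold. Ccr7 had 1 UMI in those cluster 2 cells, which gave a ratio of 359 with an interval of 63.7 to 14268, and 171 (29.0 to 6896) without the deepest cells. Actb was at 199 CP10K against 133 in cluster 2, a ratio of 1.5 (1.45 to 1.56), and at 0.621 times cluster 2 (0.580 to 0.664) without them.

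A gene was counted as different where its summed CP10K was at least 4-fold apart, among the 9259 genes with at least 50 UMIs over clusters 1 to 4. Against clusters 1 to 3 pooled, 194 genes were higher in cluster 4 (2.1%) and 443 lower (4.78%). The median log2 ratio of all 9259 genes was -0.25. Against cluster 1 alone 644 genes (6.96%) were higher and 546 (5.9%) lower. Against cluster 2 alone 369 (3.99%) were higher and 365 (3.94%) lower, and against cluster 3 alone 393 (4.24%) and 527 (5.69%). Past the same fold against each of the 3 singly were 121 higher genes (1.31%) and 185 lower genes (2.0%). Both of these leave out genes whose ratio turned on the cluster taken. Without the 4 deepest cells 187 genes were higher and 420 lower than clusters 1 to 3, and 171 and 332 of these were among the 194 and 443.

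The 20 highest ratios belonged to Ccr7, Fscn1, Apol7c, Ccl22, Foxp4, Ikzf4, Ankrd33b, Anxa3, Fxyd2, Tnip3, A630081D01Rik, Nudt17, Cacnb3, Gm38062, Dnase1l3, Rftn1, Adcy6, Crip1, Lad1 and Samsn1. Fscn1, the actin-bundling protein of mature dendritic cell extensions, was at 10.2 CP10K (608 UMIs) against 23 UMIs in clusters 1 to 3, a ratio of 120 (79.3 to 191). Apol7c, an apolipoprotein L family member, was at 4.89 CP10K and 94.7-fold higher (55.6 to 175). Cacnb3, a calcium channel beta subunit, was detected in 66.7% of the cells at 5.12 CP10K, a ratio of 60.4 (39.5 to 96.8). Ankrd33b had 52 UMIs in cluster 4 and 0 in clusters 1 to 3, and was at least 78.7-fold higher, with 3 counts over the pooled group as the floor.

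Tnip3, which restrains NF-kB signalling, was at 3.38 CP10K and 65.5-fold higher (38.2 to 122). Samsn1, an SH3 adaptor, was detected in 63.3% of the cells at a ratio of 36.3 (25.8 to 52.6). Crip1, a small LIM-domain protein, had the most UMIs of the 20, 3136 at 52.5 CP10K, 41.8-fold higher than clusters 1 to 3 and 15.4-fold higher than cluster 2. The 4 deepest cells held 68.8% of its UMIs, and without them the ratios were 16.9 and 6.25. Dnase1l3, with 72.2% of its UMIs in those cells, was 17.4-fold higher without them. Crip1, Lad1, Cacnb3, Foxp4 and Ikzf4 also had UMIs in 83.7, 79.1, 60.5, 37.2 and 23.3% of the keratin-rich cluster 5 cells. A keratinocyte source for them was not tested, and the keratinocyte list itself is given further on.

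**Figure D3:**
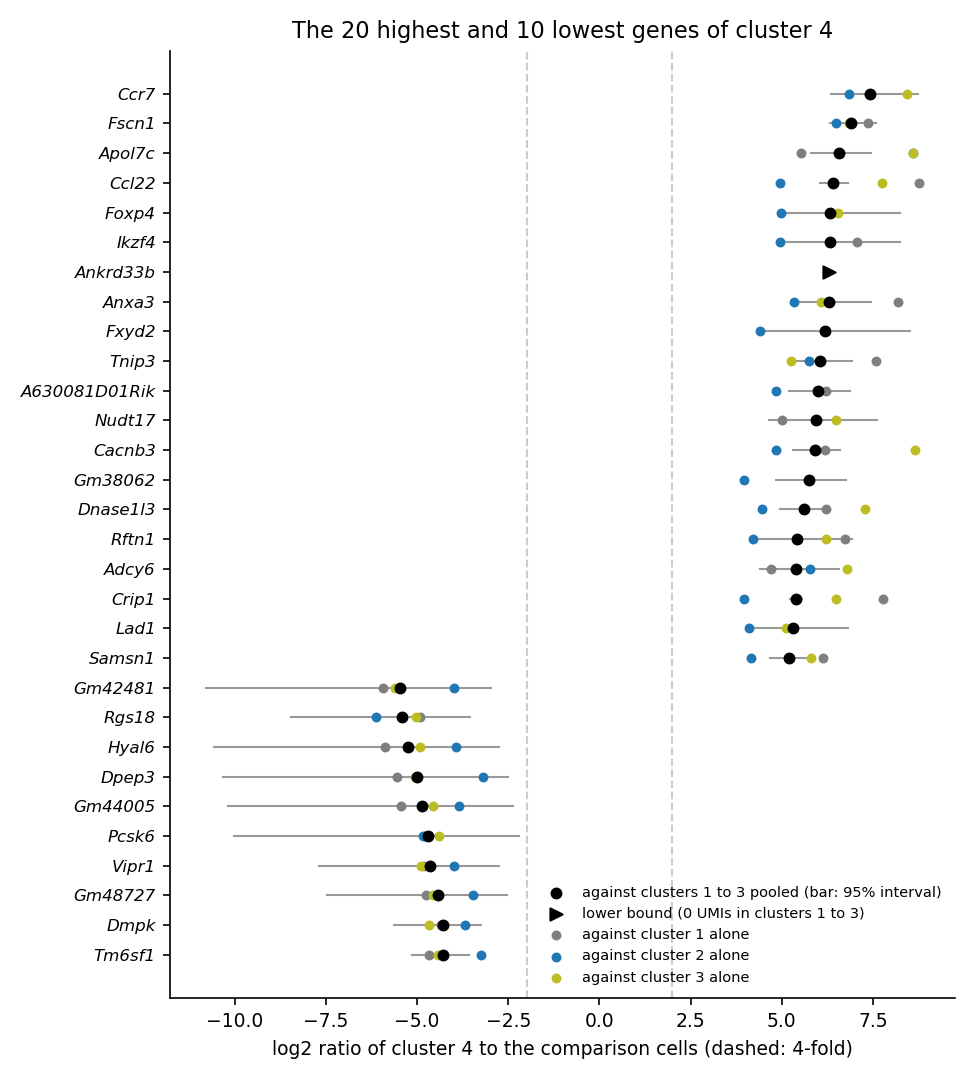
Log2 ratio of cluster 4 to the other host clusters for the 20 highest and 10 lowest genes, with black points for clusters 1 to 3 pooled, bars for the 95% counting interval, and coloured points for clusters 1, 2 and 3 singly where that cluster had a UMI. Ccr7 leads with a ratio of 171, Ankrd33b is drawn as a lower bound at 78.7, and every point lies beyond the dashed 4-fold lines.

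Of the 40 genes of a migratory dendritic cell maturation list, 31 passed the minimum, 24 were higher and 1 lower. The background for these counts, and for those of every list below against clusters 1 to 3 pooled, is all genes, 2.1% higher and 4.78% lower. The list's median log2 ratio was 3.33 against -0.25 for all genes, and 2.77 against cluster 2 alone. Since the list holds the rule's markers and was chosen with results of these cells known, its count is not independent evidence of the name. Beside the markers and fascin, it held Basp1, a membrane-attached signalling protein, at 12.3 CP10K (17.8-fold) and Marcks, an actin-binding substrate of protein kinase C, at 8.12 (5.24-fold). Tmem123, Zmynd15, Socs2, Traf1, Tnfrsf9, Serpinb6b and Adam8 were 12.3, 9.79, 21.9, 14, 14, 12.1 and 8.94-fold higher. Basp1 was 11.0-fold and Serpinb6b 6.66-fold higher without the 4 deepest cells. Ccl17, the partner chemokine of Ccl22, did not pass the minimum, with 30 UMIs in 12 of the 90 cells (0.502 CP10K).

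Costimulation was uneven between ligands. Of 13 costimulatory and checkpoint ligands 6 passed the minimum and 3 were higher, none lower (median log2 2.11). Cd40, the receptor through which T cells license antigen-presenting cells, was at 3.85 CP10K, 7.62-fold higher (6.14 to 9.49). Cd80 was at 1.97 CP10K, 6.70-fold higher (5.0 to 9.01), and Cd274, which encodes PD-L1, at 1.74 CP10K, 10.0-fold higher (7.06 to 14.5). Cd86, at 5.14 CP10K, was 1.60-fold above clusters 1 to 3.

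Of 28 transcription factors 24 passed the minimum, 10 were higher and 1 lower (median log2 1.40). Irf4, a factor needed by migratory dendritic cells, was at 1.20 CP10K and 10.2-fold higher (6.65 to 16.0). Irf8 was at 7.93 CP10K and 7.10-fold higher. The NF-kB subunit genes Nfkb2, Relb, Rel and Nfkb1 were 5.45, 4.83, 4.13 and 4.01-fold higher, whereas Rela was at 0.285 CP10K and 1.10-fold (0.608 to 1.89). Nfkb2 did not reach 4-fold without the 4 deepest cells. Etv3, Stat5a and Batf3 were 7.44, 5.40 and 12.3-fold higher. Runx3, a factor required for Langerhans cells to form, was the lower one, at 2.24 CP10K against 18.3, 8.63 and 17.7 in clusters 1, 2 and 3 (6.84-fold lower, 5.75 to 8.18). Ahr was 2.85-fold lower and did not reach 4-fold.

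The NF-kB feedback and survival list followed the subunits. Of its 20 genes 19 passed the minimum, 10 were higher and none lower (median log2 2.16, and 1.49 against cluster 2). Beside Tnip3 these were Traf1, Bcl2a1b, Bcl2a1d, Tnfaip3, Bcl3, Birc2, Map3k14, Nfkbib and Nfkbia. Against each of clusters 1, 2 and 3 singly, 5 of the 19 were past 4-fold higher, beside 1.31% of all genes. Bcl2a1b and Bcl2a1d, anti-apoptotic BCL2 relatives, were 8.32-fold and 8.35-fold higher, but they are near-identical copies whose reads the counting could have split. Tnfaip3, the A20 deubiquitinase, was 7.53-fold higher (5.11 to 11.2), and Nfkbia, the inhibitor IkBa, 4.47-fold (3.81 to 5.24). Against cluster 2 alone Nfkbia was 2.39-fold higher. Nfkbib was 3.67-fold higher without the 4 deepest cells, and so did not reach 4-fold.

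Because NF-kB subunits and inhibitors were higher together, the promoters of these genes were searched for the consensus NF-kB motif on both strands. RefSeq promoters of build GRCm38.p6, 250 bases before to 50 after the start, were available for 45 of the 63 named higher genes, and 11 of them held a match. Ccr7 and Cd83 were among those without an entry. The other markers, Ccl22 and Nr4a3, had an entry and no match. Among the genes of highest ratio, Fscn1, Apol7c, Foxp4, Ankrd33b, Nudt17, Cacnb3, Rftn1, Crip1, Lad1 and Samsn1 also had an entry without a match. Tnip3 alone of the genes of highest ratio held a match. The matches of 6 genes are shown, chosen for genes of the lists with their capitals marking the 10-base match, in the direction of the gene.
Nfkb2: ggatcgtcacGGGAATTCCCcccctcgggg
Nfkbia: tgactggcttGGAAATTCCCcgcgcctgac
Rel: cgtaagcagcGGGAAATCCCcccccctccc
Tnip3: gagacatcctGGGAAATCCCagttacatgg
Tnfrsf9: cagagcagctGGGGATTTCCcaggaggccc
Gbp5: ggagaggaaaGGAAATTCCCagggctggcc
These windows lie at chr19:46304688-46304717 (plus strand) for Nfkb2, chr12:55492657-55492686 (minus) for Nfkbia, chr11:23771042-23771071 (minus) for Rel, chr6:65590334-65590363 (plus) for Tnip3, chr4:150927946-150927975 (plus) for Tnfrsf9 and chr3:142496847-142496876 (plus) for Gbp5. The matches begin 39, 29, 92, 54, 43 and 77 bases before an annotated start, that of Tnfrsf9 being the second of its starts in the table. The motif is close to its own reverse complement, and Nfkb2, Rel and Tnfrsf9 each hold a further match shifted by 1 base.

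Over all genes with a promoter entry, the motif was in a promoter of 29 of 141 higher genes (20.6%) and 35 of 284 lower genes (12.3%). It was there for 796 of 6530 genes past the minimum (12.2%) and for 9.55% of all 27025 genes with an entry. For the genes higher than each cluster singly the share was 16 of 88 (18.2%). These shares are a description without a test, a match is no evidence that the factor was bound, and a gene without a match may hold one outside the window.

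Genes of Langerhans cell identity went the other way, but not together. Of 19 listed genes 18 passed the minimum, 9 were lower and none higher (median log2 -2.12, and -2.29 against cluster 2). Rgs18, a regulator of G protein signalling, had 2 UMIs in cluster 4 and 388 in clusters 1 to 3, a 42.7-fold lower level (11.7 to 354). Ptgs1, cyclooxygenase 1, was at 0.602 CP10K against 8.86, 4.78 and 8.58, 12.6-fold lower (9.07 to 18.0). Cdh1, which encodes the E-cadherin that holds Langerhans cells to keratinocytes, was at 0.301 CP10K against 2.04, 3.28 and 2.25, 8.17-fold lower (5.13 to 13.9). P2rx2, Lpar3, H2-M5, Cacna1e, Csf1r and Cd24a were 8.68, 7.99, 7.2, 6.68, 6.44 and 5.43-fold lower.

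Langerin itself depended on the cluster it was set against. Cd207 was at 4.69 CP10K in cluster 4 and at 1.72, 20.2 and 2.75 CP10K in clusters 1, 2 and 3. It was therefore 2.73-fold and 1.71-fold above clusters 1 and 3, and 0.232 times the level of cluster 2. It was detected in 54.4% of the cells, whose values ran from 0 through 1.77 to 177 CP10K. Epcam, at 1.24 CP10K, was 1.30 times cluster 1, 0.730 times cluster 3 and 0.114 times cluster 2. Mfge8, a secreted bridging protein, was at 30.2 CP10K, or 12.8 without the 4 deepest cells, against 43.3 in cluster 2 and 7.23 and 9.10 in clusters 1 and 3. Cdh1 was thus low against all 3 clusters and Cd207 against cluster 2 alone. Epcam was 0.236 times clusters 1 to 3 pooled, and past 4-fold, without the 4 deepest cells. With cells under 10% mitochondrial UMIs on both sides, Cd207 was 0.285 and Epcam 0.126 times cluster 2.

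The 10 lowest ratios were those of Gm42481, Rgs18, Hyal6, Dpep3, Gm44005, Pcsk6, Vipr1, Gm48727, Dmpk and Tm6sf1. Tm6sf1 had the most UMIs of them in the other clusters, 1339 against 15 in cluster 4, 19.7-fold lower (11.9 to 35.2). Vipr1, a receptor for vasoactive intestinal peptide, had 2 UMIs against 226 (24.9-fold lower, 6.81 to 207). Pcsk6, Hyal6, Dpep3, Gm42481 and Gm44005 each had 1 UMI in cluster 4, so their intervals are wide, from 4.57 to 1035 for Pcsk6.

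Antigen presentation split by class. Of 14 MHC class II genes none was higher and 2 were lower, and the median log2 ratio was 0.01 against clusters 1 to 3 pooled. That median stood at 0.86 and 0.92 against clusters 1 and 3 and at -1.15 against cluster 2, so it had no direction of its own. Against the pooled clusters it was -0.86 without the 4 deepest cells. Cd74, the invariant chain, was at 85.7 CP10K against 15.1, 233 and 28.3, and at 38.9 CP10K without those cells. The lower pair were H2-DMb1, a subunit of the peptide exchanger, and March1, the ubiquitin ligase that removes class II from the surface. They were 4.10-fold and 4.31-fold lower. Without the 4 deepest cells H2-DMb1, H2-DMa and H2-Oa were past 4-fold lower, and March1 was not.

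Of 13 MHC class I genes 3 were higher and none lower (median log2 1.58, but 0.66 against cluster 2). Nlrc5, the transactivator of class I genes, was at 2.14 CP10K and 9.85-fold higher (7.18 to 13.6). Psme2, a proteasome activator subunit, was at 4.92 CP10K and 11.5-fold higher (9.25 to 14.4), and 6.74-fold higher without the 4 deepest cells. The peptide transporter subunit Tap2 was 4.54-fold higher overall and 3.23-fold against cluster 2, and at 3.89-fold it did not reach 4-fold without the 4 deepest cells. H2-D1 and B2m, the heavy and light chains, stood at 9.46 and 10.3 CP10K, 1.06-fold and 1.04-fold against cluster 2. Those values became 0.646 and 0.516 times cluster 2 without the 4 deepest cells.

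**Figure D4:**
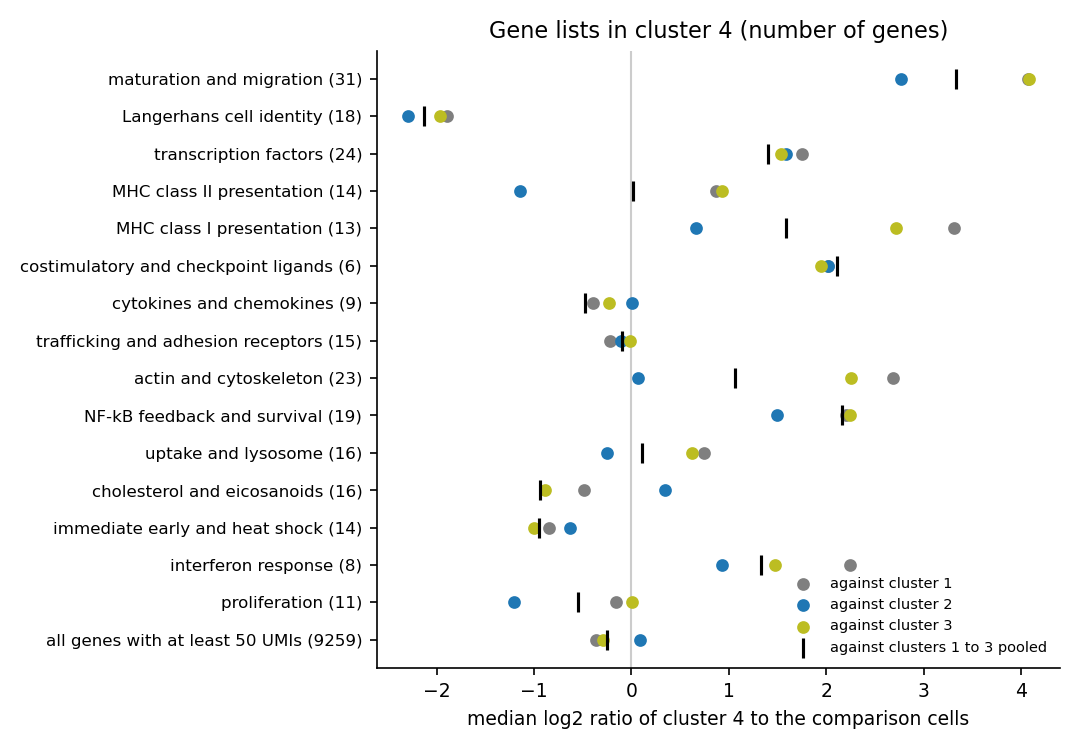
Median log2 ratio of cluster 4 for each gene list and for all 9259 genes, with a black bar for clusters 1 to 3 pooled and a coloured point for each singly, 0 marking equal levels. The maturation list lies highest at 3.33 and the Langerhans cell identity list lowest at -2.12, while the MHC class II medians lie on both sides of 0.

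Among 25 cytokines and chemokines 9 passed the minimum. Ccl22 and Cxcl9, an interferon-gamma induced chemokine, were higher, Cxcl9 by 10.6-fold (5.97 to 19.6, 42 UMIs). Il18 was 4.61-fold lower, and Ccl5 and Cxcl2 were 4.28-fold and 4.36-fold lower, with 12 and 5 UMIs. All 5 Cxcl2 UMIs came from 1 cell. Without the 4 deepest cells Il18 and Cxcl2 were 0.253 and 0.297 times clusters 1 to 3, short of 4-fold. Ccl5 was at 0.201 CP10K in cluster 4 and at 0, 2.90 and 0.0506 in clusters 1, 2 and 3, so it was low against cluster 2, which also held the most T cell marker RNA of the 4 clusters. Il23a, a subunit of interleukin 23, was at 5.94 CP10K in cluster 4 and 7.80, 5.92 and 6.99 in clusters 1, 2 and 3.

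Of 23 trafficking and adhesion receptors 15 passed the minimum, 3 were higher and 4 lower (median log2 -0.10). Beside Ccr7 the higher ones were Itga4, an integrin alpha chain, at 6.14 CP10K (5.54-fold, 4.74 to 6.47) and Icam1 at 1.79 CP10K (5.52-fold, 4.13 to 7.41). Itgam, which encodes CD11b, had 3 UMIs against 119 and was 8.73-fold lower (2.92 to 43.0). CD11b protein was part of the sort gate, so cells with little of it on their surface were not sampled. Ccr1, Itgae and Itgb7 were the other lower genes, with 1, 5 and 3 UMIs in cluster 4. Itgb7 was 0.304 times clusters 1 to 3 without the 4 deepest cells.

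Of 23 actin and cytoskeleton genes 6 were higher and none lower. They were Fscn1, Anxa3, Cnn2, Marcks, Tmsb4x and Myo1g. The median log2 ratio was 1.06 against the pooled clusters and 0.06 against cluster 2, and Tmsb4x, a thymosin that binds free actin, was 1.66-fold above cluster 2. Leaving out the 4 deepest cells, Tmsb4x was 3.00-fold higher than the pooled clusters and 1.04-fold above cluster 2. Against cluster 2, Fscn1, Anxa3 and Myo1g were 89.2, 40.7 and 4.02-fold higher.

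Of 20 cholesterol and eicosanoid genes 16 passed the minimum, 1 was higher and 4 lower (median log2 -0.94). Fabp5, a fatty acid carrier, was at 4.03 CP10K and 21.0-fold higher (15.5 to 29.0), or 13.8-fold without the 4 deepest cells. Lower were Alox5ap by 17.0-fold, Ptgs1, Apoe by 6.5-fold and Alox5 by 5.53-fold. Alox5ap and Alox5 make leukotriene precursors. Of 20 interferon response genes 8 passed the minimum and 3 were higher, Cxcl9, Gbp5 by 8.58-fold and Gbp2 by 8.37-fold. Isg15 also passed 4-fold without the 4 deepest cells, at 4.14-fold.

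Among 19 immediate early and heat shock genes 14 passed the minimum, none was higher and 3 were lower, Fos by 7.58-fold, Btg2 by 5.33-fold and Fosb by 4.71-fold, which was 0.270 times the pooled clusters without the 4 deepest cells. Of 26 uptake and lysosome genes 16 passed the minimum and none was 4-fold apart. The nearest of them were Ctsz, at 3.93-fold or 2.38-fold without the 4 deepest cells, and Ly75, the endocytic receptor DEC-205, at 10.1 CP10K and 3.61-fold. Of 18 proliferation genes 11 passed the minimum and 1, Mcm5, was lower with 1 UMI, which lay in 1 of the 4 deepest cells. Mki67 and Top2a, both at 0.385 CP10K, were 1.97-fold and 1.41-fold lower.

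Markers of other cell types were summed in cluster 4 beside the other host clusters. The keratinocyte list summed to 4.13 CP10K, all 11 genes having a UMI, against 2.94, 12.8 and 3.27 in clusters 1, 2 and 3 and 521 in the keratin-rich cluster 5. The T cell list summed to 0.452 CP10K with Trbc1, Trac and Nkg7 at 0, against 7.40 in cluster 2 and 250 in cluster 6. The list for conventional type 1 dendritic cells summed to 1.09 CP10K with Tlr3 at 0, below clusters 1 and 3 (2.07 and 2.03). The list for conventional type 2 or monocyte-derived dendritic cells summed to 1.66 with Cd209a at 0, against 2.76, 2.84 and 2.48. Monocyte and macrophage markers summed to 2.16 CP10K with Lyz2, Ly6c2 and Fcgr1 at 0, against 0.590, 3.91 and 0.861, and 1 cell reached 99.6. Neutrophil, melanocyte, and fibroblast or endothelial markers summed to 0.418, 0.870 and 6.64 CP10K, the last against 7.65, 6.29 and 6.68. No gene of the mast cell and erythroid lists was in the host table. Also not in it were Plac8, Mrc1 and Chil3 of the monocyte and macrophage list, and S100a9, Retnlg and Ly6g of the neutrophil list. Clec9a of the type 1 and Clec10a of the type 2 dendritic cell list were missing too, as were Col3a1 and Cdh5. The sums therefore leave these genes out.

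Donor cells gave the same measure in libraries the choice of cells did not use. The authors had annotated migrating and resident monocyte-derived Langerhans cells (mLCs) among the female donor cells. BMT replicate 1 held 91 migrating and 105 resident mLCs, and BMT replicate 2 held 766 and 1175. In BMT replicate 3 there were 2 migrating mLCs, and in the library labelled BMT + T cells 16, both under the minimum of 20 set for a comparison. These donor clusters were also made from their own expression values, so the ratios within each library have no test. The host and donor cells were clustered separately.

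Of the 194 genes higher in host cluster 4, 167 were in the donor table and 125 could be evaluated in replicate 1. A gene was evaluated where its migrating and resident UMIs together reached 50. Host-higher genes near 0 in resident mLCs thus entered only through their migrating count. Host-lower genes near 0 in migrating mLCs entered only through their resident count. That filter can raise the shares given here. Of the 125 genes, 77 (61.6%) were at least 4-fold higher in migrating than in resident mLCs, against 2.74% of the 4274 genes past the minimum in both tables. In replicate 2 these were 81 of 157 (51.6%) against 1.82%. In both replicates they were 63 of 125 (50.4%) against 1.85%, and made up 79.7% of the 79 donor genes past 4-fold in both. Of the 443 genes lower in host cluster 4, 67 of 134 (50%) were lower in migrating mLCs of replicate 1, against 3.23%, and 114 of 271 (42.1%) in replicate 2, against 3.98%. In both they were 44 of 134 (32.8%) against 1.8%, or 57.1% of 77 donor genes. In each replicate the host genes took the host direction at a greater share than all genes did. The host and donor sets share no library. The paper defined its migrating mLCs by Cd83, Nr4a3 and Ccr7, which are also markers of host cluster 4. The greater shares are therefore not independent evidence of a common state.

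Fscn1 was at 4.68 and 4.91 CP10K in donor migrating mLCs of replicates 1 and 2, and had 0 and 0.02 CP10K in resident mLCs. Ccr7 was at 9.58 and 8.04 CP10K in them and Ccl22 at 29.2 and 33.4. In host cluster 4 the same genes stood at 10.2, 4.40 and 19.1 CP10K. Cd83 was at 5.89 and 5.73 CP10K in the donor cells and 4.67 in the host cells, and Nr4a3 at 7.57 and 7.72 against 10.2. Each of these 5 genes lay within 3-fold between host and donor. That did not hold without the 4 deepest host cells, when Ccl22 was at 8.16 CP10K and 3.58-fold and 4.09-fold higher in the donor cells, and Ccr7 at 2.53 and 3.78-fold and 3.17-fold higher.

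Ccl17 stood apart. Donor migrating mLCs held 88.0 and 78.0 CP10K of it in replicates 1 and 2 and 31.1 CP10K in the 16 cells labelled BMT + T cells, and host cluster 4 held 0.502. The donor levels were 175-fold (123 to 260) and 155-fold (109 to 230) higher. The low host level was also seen in the 30 host cells with under 10% mitochondrial UMIs, which held 0.624 CP10K of Ccl17 beside 33.4 of Ccl22, and without the 4 deepest cells 0.415 beside 7.38. Donor migrating mLCs had median mitochondrial shares of 1.57% and 1.91%, against 12.9% in host cluster 4. Host or donor origin, library and RNA quality cannot be told apart in these libraries.

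Over 4365 genes evaluated in host cluster 4 and both donor replicates, 359 (8.22%) were at least 4-fold higher in donor migrating mLCs of both and 463 (10.6%) at least 4-fold lower. Without the 4 deepest host cells these were 678 and 505 genes. Of 33 maturation genes evaluated, Ccl17 and Ccl5 were higher in the donor cells and Socs2 and Tnfrsf9 in the host cells. Of 13 cytokines and chemokines, Ccl17, Ccl4, Ccl5, Cxcl9, Il1b and Il1rn were higher in the donor cells and Il23a in the host cells. Cxcl16 and Il12b joined those higher in the donor cells without the 4 deepest host cells. Il23a was at 0 and 0.02 CP10K in the donor migrating mLCs. As it was close to level over all 4 host clusters, that difference was not limited to cluster 4.

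Of 13 Langerhans cell identity genes, Cdh1, Epcam and Il1r2 were higher in the donor migrating mLCs, and Cd207, Cacna1e, Hpgds and Ltc4s in host cluster 4. Cd207 was at 4.69 CP10K in the host cells against 0.24 and 0.82, and Epcam at 1.24 against 8.49 and 5.50. Cd207 RNA was therefore higher in the host migratory cells and Epcam RNA in the donor ones. As for Ccl17, host or donor origin, library and RNA quality cannot be told apart in these differences.

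**Figure D5:**
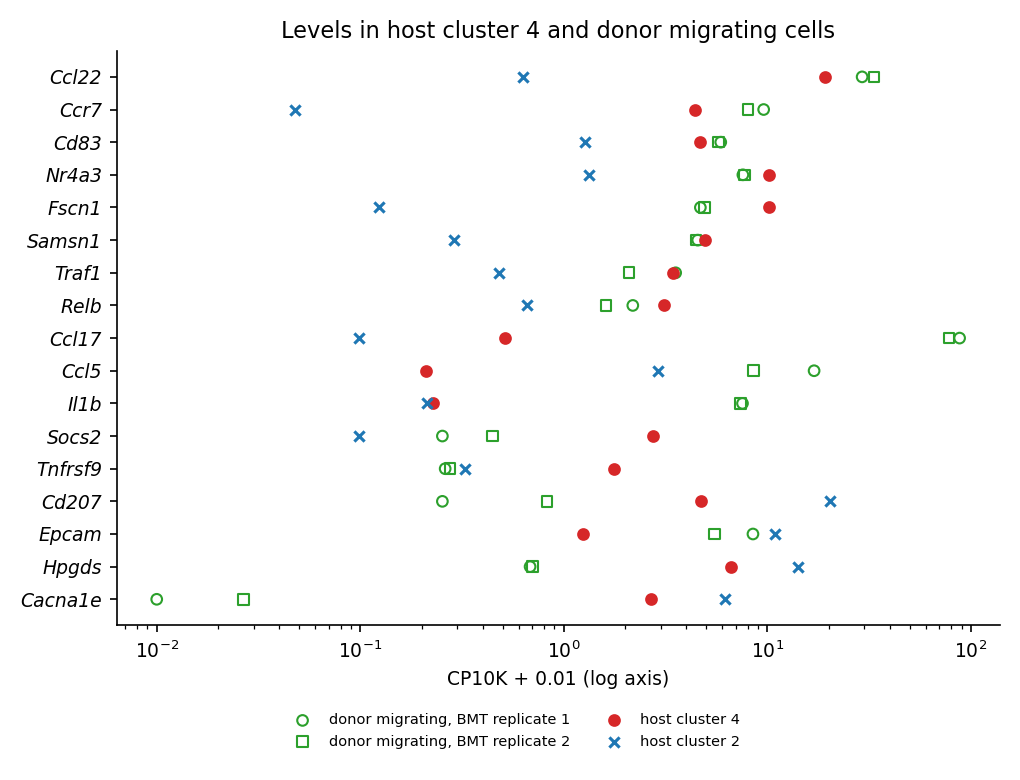
Level of 17 genes in host cluster 4, host cluster 2 and donor migrating mLCs of BMT replicates 1 and 2, as CP10K plus 0.01 on a log axis, each point being the summed cells of 1 cluster and library. Ccl17 lies at 0.502 in host cluster 4 and at 88.0 and 78.0 CP10K in the donor cells, while Ccl22 lies at 19.1, 29.2 and 33.4.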

How the data were processed

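Host and donor CD11b+MHCII+ cells of mouse epidermis were profiled by droplet single-cell RNA sequencing. The authors deposited expression as the natural log (ln) of 1 plus UMIs per 10000, with a mitochondrial percent, cluster numbers and a UMAP score for each cell, and the UMAP score was only read in. kallisto, bustools, Seurat and build GRCm38 are named in the submitters' processing notes, without versions. The study states that cells under 500 genes or over 20% mitochondrial UMIs and likely doublets were removed, but the deposited host table holds such cells. They were kept here, and no doublet caller was run.

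UMI counts were recovered by undoing the log: 100% of nonzero host and donor values were whole within 0.001. Counts were summed over the cells of a cluster and given as CP10K. Ratios have exact conditional binomial intervals and shares have Clopper-Pearson intervals, both at 95%, and the limit of a count of 0 is 3 counts. Genes named are the 20 highest and 10 lowest ratios (a UMI in at least 10% of cells of the higher side), the 4 markers and members of the gene lists. The cluster and the lists were chosen with earlier results of these data known. Alternatives were gene minimums, thinning, weighting, quality filters, leaving out the deepest cells, single clusters and donor libraries. The ratio code was tested on simulated counts. Tables were handled with pandas 2.3.3 under Python 3.11.15, intervals came from SciPy 1.17.1 with NumPy 2.4.6, and plots from matplotlib 3.10.9.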

Additional observations from a re-analysis of the deposited data

Results flagged for a closer look

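Ccl5, a chemokine for T cells and monocytes, took opposite directions in host and donor migratory cells when host clusters 1 to 3 were pooled. Its log2 ratio was -2.10 in host cluster 4 against clusters 1 to 3, and 6.93 and 3.94 in migrating against resident mLCs of BMT replicates 1 and 2. The difference was not tested. Host cluster 4 held 12 UMIs of Ccl5. Its log2 ratio turned to at least 2.93 against cluster 1 alone and to 1.99 against cluster 3 alone, the direction of the donor cells. Cluster 2 held 2.90 CP10K of Ccl5 and 7.40 CP10K of the T cell list, and the part of T cell RNA in this value was not tested.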

How the results depend on the processing

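The maturation, Langerhans cell identity, NF-kB, transcription factor, MHC class I, costimulatory, actin, interferon and immediate early medians kept their sign under every alternative run for them, and the MHC class II, cytokine, trafficking, uptake, cholesterol and proliferation medians did not. The number of higher genes was 1061 with no minimum, 39 after thinning to 1000 UMIs, 5 by mean ln values and 538 for cells under 10% mitochondrial UMIs against cluster 2. It was 644, 369 and 393 against clusters 1, 2 and 3 alone and 121 against each. The number of lower genes was 807 with a minimum of 20 UMIs or none, 271 with 100 UMIs, 145 thinned, 2 by mean ln values and 185 against each cluster. By mean ln values the log2 medians were 1.15 (maturation), -0.59 (identity), 0.45 (transcription factors), 0.95 (class I), 0.61 (costimulatory), 0.0058 (trafficking), 0.70 (NF-kB), -0.029 (cholesterol), -0.18 (immediate early) and 0.34 (interferon). Against cluster 1 alone they were 4.07 (maturation), 0.86 (class II), 3.31 (class I), 2.69 (actin), 0.74 (uptake) and 2.24 (interferon). Against cluster 2 alone they were -1.15 (class II), 0.66 (class I), 0.0049 (cytokines), 0.063 (actin), 1.49 (NF-kB), -0.25 (uptake), 0.34 (cholesterol) and -1.20 (proliferation). Against cluster 3 alone they were 4.08 (maturation), 0.92 (class II), 2.71 (class I), 2.26 (actin) and 0.0071 (proliferation). For cells under 10% mitochondrial UMIs, an alternative added after the data were seen, they were -0.67 (class II), 1.41 (NF-kB), -0.088 (cholesterol) and -1.16 (proliferation). Without the 4 cells of cluster 4 over 20000 UMIs, also added after the data were seen, they were -0.86 (class II) and -0.030 (uptake). Thinning gave 0.49 (trafficking), -0.40 (uptake) and -1.62 (cholesterol). Without cells under 500 genes or over 20% mitochondrial UMIs the class II median was -0.087 and the interferon median 0.58, and with clusters weighted equally class II was -0.089. The mean of CP10K over cells gave -1.20 for proliferation. Ccl5 turned to 2.93 and 1.99 against clusters 1 and 3 alone and to 0.10 by mean ln values, and Cxcl2 to 0.67 for cells under 10% mitochondrial UMIs. At 2000 UMIs the shares of cells with Ccl22, Nr4a3, Ccr7 and Cd83 were 60.0, 77.3, 33.3 and 44.0%. Leaving out 1 donor replicate moved the share of host-lower genes lower in donor cells from 32.8% to between 42.1 and 50%, without BMT replicate 1 and without BMT replicate 2. That of host-higher genes moved from 50.4% to between 51.6 and 61.6%. Adding the 16 migrating mLCs labelled BMT + T cells gave 21.8% and 38.8%. A gene had to be past 4-fold in every donor library used, so leaving out a library relaxed this rule and adding 1 tightened it. The genes evaluated could also change with the libraries. Beyond that, the cause of these changes was not tested. Of 2340 values of single genes, 4 reversed, 929 moved and 1407 stayed within the counting interval of the ratio reported. No paired analysis was run, as there was 1 host library and no result comes from a test.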

Other observations

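Cells of cluster 4 with more of the 4 markers also held more Fscn1, which was not among the 4. Fscn1 was at 1.05, 3.43, 8.97 and 15.1 CP10K in the cells with 1, 2, 3 and 4 markers, and at 0 in the 4 cells with none. The 4 deepest cells of the cluster all carried 4 markers, and without them Fscn1 was at 9.39 CP10K in the cells with 4. Depth moved with this order, and Actb did so only in part. The median depth was 682.5 UMIs in the cells with none, and 3664, 4578, 5110 and 7582 UMIs in those with 1 to 4 markers. Actb was at 123 CP10K in the cells with none. In those with 1 to 4 markers it was at 44.0, 35.6, 76.5 and 182 CP10K, the last being 70.2 without the 4 deepest cells. Their part in the order was not tested. Cd207 had no such order, at 6.81 CP10K in the cells with none and 2.62, 4.70, 4.32 and 5.13 CP10K in those with 1 to 4.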
